A study of Homo sapiens with 12 samples.

Results

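The genes described here are 48 genes of the lysosome: the TFEB-family transcription factors, lysosomal membrane proteins, cathepsins and other proteases, glycosidases, lipid and sulfate hydrolases, and the subunits of the V-ATPase. They were taken from a list of symbols and kept for testing where all 3 of the authors' expression tables listed them at an average of 1 FPKM or more (fragments scaled to transcript length and library size) over the libraries used. Of the 48 genes, 44 met that level, among 11075 genes tested in all. The 4 genes below it were TFEB, LGMN, GAA and LIPA.

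Lysosomes break down proteins, glycans and lipids with acid hydrolases. The V-ATPase, a rotary proton pump with a cytosolic V1 sector that splits ATP and a membrane V0 sector that carries protons, keeps their lumen acidic. TFEB, TFE3 and MITF are related basic helix-loop-helix leucine zipper factors that bind E-boxes and CLEAR elements near many lysosomal genes, and the kinase mTORC1 holds them in the cytosol of fed cells.

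Messenger RNA was measured by stranded poly(A) RNA-seq in K562, a human leukemia line with erythroid and megakaryocytic features. Experiment 1 compared wild-type (WT) cells given palmitoleate, a monounsaturated fatty acid, with WT cells given palmitate, the saturated acid of the same chain length, and with untreated WT cells. Experiment 2 held WT cells given palmitate and palmitoleate together, cells labelled GPAT4ko given palmitate, WT cells given palmitate and untreated WT cells. Experiment 3 held cells labelled RNF213kd given palmitate, RNF213kd cells untreated, WT cells given palmitate and untreated WT cells. Palmitate was bound to bovine serum albumin at 0.2 mM, for 20 h according to the sample labels and 16 h according to the table legends. The mixture held 0.2 mM of each acid, and no dose is stated for palmitoleate alone. Each library pooled the RNA of biological triplicates, so WT with palmitate and untreated WT had 3 libraries each, 1 per experiment, and every other group had 1. Whether untreated cells received albumin, how the GPAT4ko and RNF213kd lines were made and whether they are single clones is not stated in the labels. The labelled untreated GPAT4ko library was not analysed here.

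AGPAT6, the symbol for GPAT4 in the tables, was at 8.77 FPKM in GPAT4ko cells given palmitate, against 20.0 FPKM in WT cells given palmitate. RNF213 was at 1.54 and 1.39 FPKM in RNF213kd cells with palmitate and untreated, against 3.08 and 1.96 FPKM in WT cells with palmitate and untreated. The 5 K562 markers HBG1, HBG2, GATA1, TFRC and LMO2 were expressed, and their FPKM summed to 1934 to 4532 in WT cells given palmitate and 4934 to 8863 in untreated WT cells. Of the monocyte and macrophage markers only LYZ reached 1 FPKM (19.8 to 57.8), of the T cell markers only CD3D, of the fibroblast markers only COL1A2 (at most 2.88), and of the epithelial markers EPCAM and KRT19. All B cell and endothelial markers stayed under 1 FPKM. The part of these marker levels in the results was not tested. Read counts are not in the tables, so depth is unknown, and summed FPKM ran from 612355 to 821188 per library. Palmitate ratios tracked the GC content of transcripts differently by experiment: across genes the Spearman rho of the log2 ratio with GC was -0.63 in experiment 1, -0.02 in experiment 2 and 0.15 in experiment 3. Where removing that trend changed a call, this is stated beside the gene. With the trend removed, 1474 of 10628 genes were called higher under palmitate and 1577 lower, against 730 and 425 of 11075 without that step.

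Palmitate raised 7 lysosomal genes and lowered 1 in WT cells. CTSL1, NEU1, CTNS, TFE3, IDS, GLA and PSAP were called higher and CTSZ lower (limma on the 3 within-experiment log2 ratios of FPKM + 1, Benjamini-Hochberg adjusted p under 0.05 over 11075 genes). The 7 are 15.9% of the 44 tested genes, against 6.59% of all genes tested, and the 1 lower gene is 2.27%, against 3.84% of all genes. None of the 14 V-ATPase genes passed limma, and 4 of them had an unadjusted p under 0.05 (28.6%, against 32.6% of all genes). The median log2 ratio of the 44 genes was 0.34, with 0.07, 0.52 and 0.41 in experiments 1, 2 and 3, against -0.06 for all genes tested. In total 19 of the 44 ratios were above 0 in all 3 experiments (43.2%, against 25.9% of all genes) and 5 were below 0 in all 3 (11.4%, against 29.6%). The summed FPKM of the 48 genes was 2986, 6049.6 and 3282 in palmitate libraries of experiments 1, 2 and 3, against 2732, 3157 and 2233 in untreated ones. Each table was scaled separately, so levels set across experiments are a description. Where groups of libraries are said below not to overlap, this too is such a description. The share of all genes without overlap is not given, so non-overlap adds no support to a call. RNA from many cells was pooled, so a change per cell and a change in the share of cells cannot be told apart.

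These calls rest on 3 paired experiments, and p-values measure only the spread between them, which limma estimates partly from other genes. Without experiment 1 or without experiment 3, with no filter on expression, or with the libraries unpaired, 0 lysosomal genes passed limma. Over all genes 0 passed without experiment 1, without experiment 3 or with no filter, and 262 higher and 52 lower passed unpaired. The 8 called genes had the same sign in all 3 experiments, so these fits could not turn their direction. Without experiment 2, CTSL1, NEU1, CTNS, TFE3 and IDS passed, among 599 higher and 291 lower of all genes. In that fit the smallest limma adjusted p over all genes was 2.8e-138, against 0.00984 with all 3 experiments. Its p-values cannot be set beside those of the main fit.

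**Figure D1:**
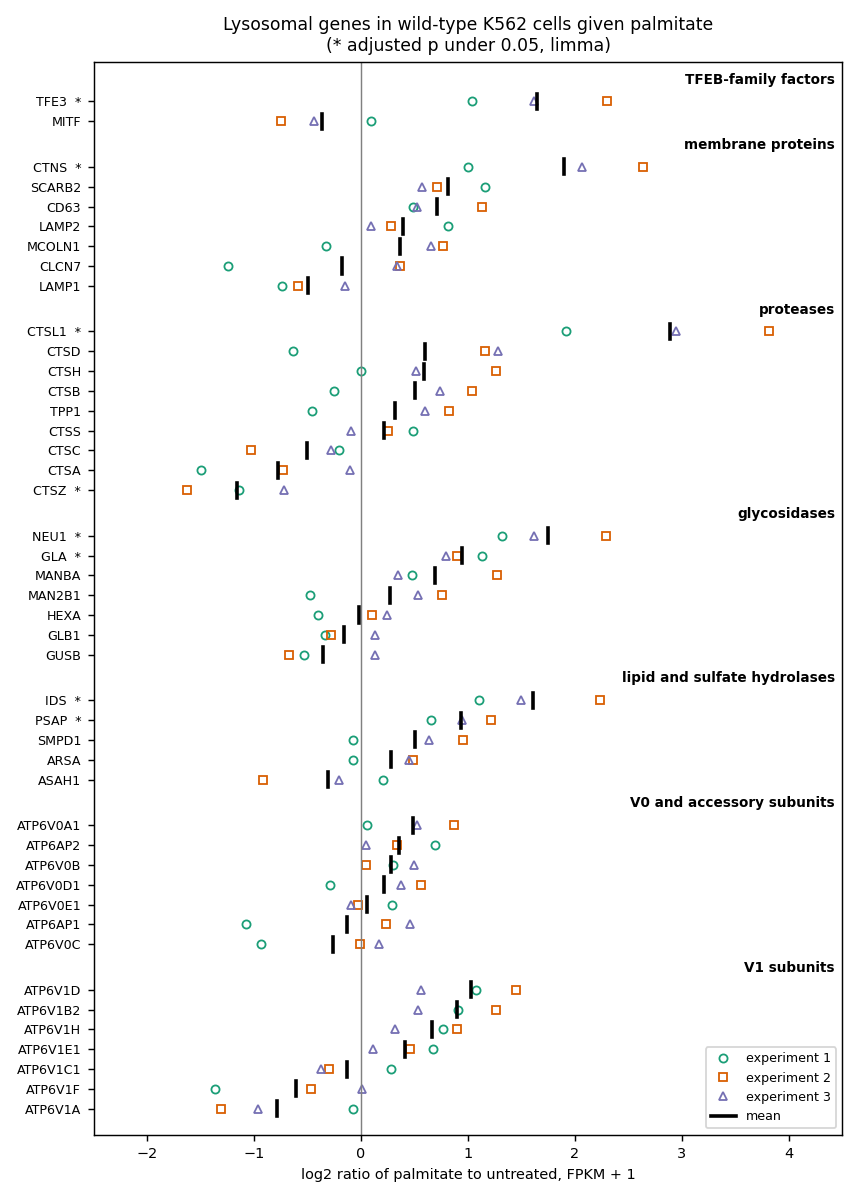
Log2 ratio of palmitate to untreated (FPKM + 1, x axis) in WT cells for the 44 tested lysosomal genes, grouped by role and ordered by the mean (black bar), with 1 symbol per experiment. CTSL1 has the largest mean at 2.89, CTSZ the lowest at -1.16, and experiment 1 (circles) lies left of the other experiments for CTSD, CLCN7, ATP6AP1 and ATP6V0C.

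Of the TFEB-family factors TFE3 passed and MITF did not. TFE3 (chrX:48886237-48900936 in hg19, minus strand) was at 23.2, 52.7 and 25.4 FPKM in the palmitate libraries of experiments 1, 2 and 3, against 10.8, 9.93 and 7.60 FPKM in the untreated ones. Every palmitate library was above every untreated library, with log2 ratios of 1.03, 2.30 and 1.62 in experiments 1, 2 and 3. Their mean was 1.65 ± 0.29 (limma's moderated SE, n = 3 experiments, limma adjusted p = 0.0307). Limma draws this SE, given after every ± here, partly from other genes. It can thus be narrower than the SE of a gene's own 3 ratios. MITF, best known from the melanocyte lineage, was at 7.63, 2.32 and 4.43 FPKM with palmitate, against 7.08, 4.59 and 6.36 FPKM untreated. Its log2 ratio was positive in experiment 1 and negative in experiments 2 and 3, with a mean of -0.36 ± 0.24 (limma adjusted p = 0.331). TFEB itself was at 0.243, 1.35 and 0.277 FPKM with palmitate, against 0.533, 0.685 and 0.192 FPKM untreated, and exceeded 1 FPKM only in experiment 2. TFE3 was the most abundant of the 3 factors in 10 of the 11 libraries, the exception being WT with palmitoleate (7.56 FPKM for TFE3 and 9.06 FPKM for MITF).

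TFEB-family factors bind the sequence CACGTG, and the longer palindrome TCACGTGA, which contains it, is the core of the CLEAR element. Promoter windows of 300 bases (250 before to 50 after the transcription start, RefSeq, GRCh38.p14) matched 34 of the 48 genes. CACGTG, which reads the same on both strands, was present in 10 of the 34 windows (29.4%), against 7.26% of all 35116 windows. Among tested genes it was in 9 of 31 lysosomal windows (29%), against 10.7% of 8526 windows. TCACGTGA was present in 5 windows (14.7%), those of LAMP1, MCOLN1, GAA, CTSA and ATP6V0D1, against 0.98% of all windows. Among tested genes, which leave out GAA, it was in 4 of 31 (12.9%), against 2.15%. Of the 6 genes called higher that have a window, NEU1 held CACGTG and none held TCACGTGA; no match says only that these letters are not in this window. As examples, the windows of LAMP1 and MCOLN1, which hold the motif 6 and 2 times and were not called, are shown. Those of NEU1, which holds it 1 time, and CTSL1, which lacks it, are shown too, and both genes were called higher. All read 5′ to 3′ on the gene's strand, and capitals mark CACGTG.
LAMP1, chr13:113296989-113297288, plus strand: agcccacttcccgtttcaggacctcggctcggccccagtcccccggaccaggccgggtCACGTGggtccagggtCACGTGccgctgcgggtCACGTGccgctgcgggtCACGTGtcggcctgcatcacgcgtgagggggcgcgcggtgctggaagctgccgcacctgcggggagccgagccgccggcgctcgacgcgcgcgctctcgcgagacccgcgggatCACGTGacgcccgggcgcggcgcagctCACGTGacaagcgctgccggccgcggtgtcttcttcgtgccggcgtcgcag
MCOLN1, chr19:7522374-7522673, plus strand: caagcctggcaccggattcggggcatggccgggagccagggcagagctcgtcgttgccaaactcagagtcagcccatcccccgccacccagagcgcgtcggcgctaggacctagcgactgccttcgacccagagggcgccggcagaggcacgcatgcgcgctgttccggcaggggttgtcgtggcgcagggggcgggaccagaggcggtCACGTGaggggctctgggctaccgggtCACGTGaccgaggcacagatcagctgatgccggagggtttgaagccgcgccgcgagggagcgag
NEU1, chr6:31862772-31863071, minus strand: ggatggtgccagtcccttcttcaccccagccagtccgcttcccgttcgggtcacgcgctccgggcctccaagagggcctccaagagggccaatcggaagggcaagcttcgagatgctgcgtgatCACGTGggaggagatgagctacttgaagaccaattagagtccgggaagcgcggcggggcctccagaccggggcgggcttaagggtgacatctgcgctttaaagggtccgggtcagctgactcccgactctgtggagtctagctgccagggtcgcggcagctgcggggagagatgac
CTSL1 (now CTSL), chr9:87725869-87726168, plus strand: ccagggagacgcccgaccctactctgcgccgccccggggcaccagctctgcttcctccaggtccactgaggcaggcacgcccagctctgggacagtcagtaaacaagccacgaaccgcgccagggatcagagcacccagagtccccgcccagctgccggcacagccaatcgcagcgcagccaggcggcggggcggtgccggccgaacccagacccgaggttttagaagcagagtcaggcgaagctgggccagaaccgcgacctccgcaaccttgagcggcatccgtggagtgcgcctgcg
Mean log2 ratios under palmitate were -0.49 ± 0.21 for LAMP1 (6 copies) and 0.36 ± 0.27 for MCOLN1 (2 copies). They were 1.74 for NEU1 (1 copy) and 2.89 ± 0.37 for CTSL1 (0 copies). These 4 windows are a choice from the 34, and a link between motif and response was not tested. The motif is a description of sequence only, and binding was not measured.

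Among the 9 tested proteases, CTSL1 passed upward and CTSZ downward. CTSL1 (chr9:90338966-90346384, plus strand), which encodes the endopeptidase cathepsin L, was at 228, 1684 and 429.9 FPKM in palmitate libraries, against 59.8, 119 and 55.0 FPKM in untreated ones. The groups did not overlap, and the ratio differed by experiment, at 1.91, 3.82 and 2.94 on the log2 scale for experiments 1, 2 and 3, with a mean of 2.89 ± 0.37 (limma adjusted p = 0.0188). CTSZ (chr20:57560741-57583293, minus strand) encodes the carboxypeptidase cathepsin Z. It was at 35.0, 47.5 and 33.9 FPKM with palmitate, against 78.3, 149 and 56.4 FPKM untreated. All palmitate libraries lay below all untreated ones, and the mean log2 ratio was -1.16 ± 0.24 (limma adjusted p = 0.0419).

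None of the other 7 tested proteases passed limma, and 1 had an unadjusted p under 0.05, a level that 32.6% of all genes reached. CTSD, the aspartic protease cathepsin D, was at 25.1, 128 and 56.5 FPKM with palmitate, against 39.5, 56.8 and 22.7 FPKM untreated: lower in experiment 1 and higher in experiments 2 and 3 (mean 0.60 ± 0.41, limma adjusted p = 0.348). With the GC trend removed, CTSD passed as higher. CTSB (cathepsin B) and TPP1 (tripeptidyl peptidase 1) had the same order of signs, with log2 ratios of -0.25, 1.04 and 0.74 for CTSB and -0.46, 0.82 and 0.60 for TPP1 in experiments 1, 2 and 3. The dipeptidyl peptidase cathepsin C (CTSC, -0.51 ± 0.24) and the serine carboxypeptidase cathepsin A (CTSA, -0.78 ± 0.30), which also protects neuraminidase 1 and beta-galactosidase in a complex, had ratios below 0 in all 3 experiments without passing (limma adjusted p = 0.199 and 0.141). CTSH averaged 0.59 ± 0.28 and CTSS 0.22 ± 0.20. LGMN, the asparagine-specific protease that processes cathepsins, was under the level for testing, at 0.641, 1.15 and 0.565 FPKM with palmitate and 0.244, 0.0767 and 0.0883 FPKM untreated, with no overlap between the groups.

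NEU1 and GLA passed among the 7 tested glycosidases. NEU1 (chr6:31825436-31830682, minus strand), which encodes the sialidase that removes terminal sialic acid, was at 71.7, 208 and 111 FPKM in palmitate libraries, against 28.1, 41.8 and 35.5 FPKM in untreated ones. Palmitate libraries were all above untreated ones, with a mean log2 ratio of 1.74 ± 0.25 (limma adjusted p = 0.0222). GLA (chrX:100648261-100663000, minus strand), alpha-galactosidase A, was at 57.2, 75.7 and 38.5 FPKM with palmitate, against 25.6, 40.1 and 21.8 FPKM untreated. Its groups overlapped, since the palmitate library of experiment 3 lay below the untreated library of experiment 2, while each experiment's own ratio was above 0 (mean 0.94 ± 0.19, limma adjusted p = 0.0422).

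The remaining glycosidases did not pass. MANBA, beta-mannosidase, had ratios above 0 in all 3 experiments (0.47, 1.27 and 0.34; mean 0.69 ± 0.25, limma adjusted p = 0.123). GUSB, beta-glucuronidase, had the lowest mean of the group: it was at 22.2, 32.1 and 26.0 FPKM with palmitate, against 32.5, 51.7 and 23.7 FPKM untreated (-0.36 ± 0.24, limma adjusted p = 0.339). HEXA, the alpha subunit of beta-hexosaminidase, averaged -0.02 ± 0.22, GLB1, beta-galactosidase, -0.16 ± 0.21, and MAN2B1, alpha-mannosidase, 0.27 ± 0.29. GAA, acid alpha-glucosidase, stayed below 1 FPKM in every library.

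Of 5 tested lipid and sulfate hydrolases, IDS and PSAP passed. IDS (chrX:148558519-148602635, minus strand), iduronate 2-sulfatase of heparan and dermatan sulfate breakdown, was at 18.8, 49.1 and 19.2 FPKM in palmitate libraries, against 8.21, 9.66 and 6.14 FPKM in untreated ones. No untreated library reached the lowest palmitate library. The pseudogene IDSP1 resembles IDS, so how reads were divided between them is uncertain. For IDS the mean log2 ratio was 1.61 ± 0.27 (limma adjusted p = 0.0297). PSAP (chr10:73576055-73611008, minus strand), the precursor of the saposins that present sphingolipids to their hydrolases, was at 397, 822 and 431 FPKM with palmitate, against 253, 353 and 224 FPKM untreated. Here too the groups did not overlap (mean 0.94 ± 0.20, limma adjusted p = 0.0431).

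The sphingolipid hydrolases proper did not pass. ASAH1, acid ceramidase, was at 51.7, 17.4 and 28.5 FPKM with palmitate, against 44.8, 33.8 and 33.1 FPKM untreated, with ratios of either sign (mean -0.31 ± 0.27, limma adjusted p = 0.461). SMPD1, acid sphingomyelinase, averaged 0.50 ± 0.25 and passed as higher with the GC trend removed. ARSA, arylsulfatase A, with the lowest mean level of the tested genes at 1.55 FPKM, averaged 0.28 ± 0.19; TFEB, the gene nearest below the threshold of 1 FPKM, had a mean level of 0.623 FPKM. LIPA, lysosomal acid lipase, which frees fatty acids from cholesteryl esters and triglycerides, stayed below 1 FPKM in every library.

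CTNS alone passed among the 7 membrane protein genes. CTNS (chr17:3539753-3566397, plus strand) encodes cystinosin, the exporter of cystine. It was at 7.07, 24.1 and 10.6 FPKM in palmitate libraries, against 3.04, 3.05 and 1.78 FPKM in untreated ones. All palmitate libraries stood above all untreated ones, with a mean log2 ratio of 1.90 ± 0.33 (limma adjusted p = 0.0311). SCARB2, the receptor that carries glucocerebrosidase to lysosomes, and CD63, a tetraspanin, had ratios above 0 in all 3 experiments (means 0.81 ± 0.22 and 0.71 ± 0.21, limma adjusted p = 0.067 and 0.0798). Both passed when small RNA genes, or the GC trend, were taken out, and SCARB2 also with ratios centred on their median. Those settings also called more of all genes, as listed with the V-ATPase genes below.

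The structural glycoproteins LAMP1 and LAMP2 had means of opposite sign, and neither passed. LAMP1 was at 19.8, 46.2 and 44.1 FPKM with palmitate, against 33.7, 70.2 and 48.9 FPKM untreated, with ratios of -0.74, -0.59 and -0.15 and a limma adjusted p of 0.173. LAMP2 had ratios of 0.82, 0.28 and 0.09 (mean 0.39 ± 0.22, limma adjusted p = 0.274). MCOLN1, the calcium channel TRPML1, and CLCN7, a chloride-proton exchanger, were below 0 in experiment 1 and above 0 in experiments 2 and 3 (means 0.36 ± 0.27 and -0.18 ± 0.36), and MCOLN1 passed as higher with the GC trend removed.

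None of the 14 listed V-ATPase genes passed, and subunits of 1 complex had means on either side of 0. In the V1 sector the highest was ATP6V1D, of the central stalk, at 42.2, 62.5 and 44.1 FPKM with palmitate, against 19.5, 22.2 and 29.5 FPKM untreated. Its groups did not overlap, and its mean of 1.03 ± 0.24 missed the threshold (limma adjusted p = 0.0504). The catalytic A subunit and the B subunit, which alternate in the same ring, had means of opposite sign, and neither passed. ATP6V1A was at 18.2, 8.53 and 12.6 FPKM with palmitate, against 19.3, 22.6 and 25.6 FPKM untreated (mean -0.78 ± 0.29, limma adjusted p = 0.125). ATP6V1B2 was at 96.9, 129.7 and 68.3 FPKM with palmitate, against 51.4, 53.5 and 47.1 FPKM untreated (mean 0.90 ± 0.22, limma adjusted p = 0.0567). Under other settings some V1 genes did pass: ATP6V1D as higher with a mean of at least 5 FPKM, with no intensity trend, with centred ratios, with small RNA genes left out and with the GC trend removed, and ATP6V1B2 as higher under the last 3 of these. ATP6V1H passed as higher and ATP6V1A as lower with the GC trend removed. Over all genes, GC removal called 1474 higher and 1577 lower of 10628, and leaving out small RNA genes 1214 and 1180 of 10879. Centred ratios called 964 and 636 of 11075, no intensity trend 722 and 436 of 11075, and the 5 FPKM level 536 and 360 of 8256.

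The remaining V1 subunits ran from ATP6V1H (0.66 ± 0.21) and ATP6V1E1 (0.41 ± 0.20) to ATP6V1C1 (-0.13 ± 0.23) and ATP6V1F (-0.61 ± 0.29). Among V0 and accessory subunits the highest mean was that of ATP6V0A1, the a subunit, at 32.6, 57.3 and 32.3 FPKM with palmitate, against 31.4, 30.8 and 22.2 FPKM untreated (0.48 ± 0.23, limma adjusted p = 0.210). ATP6V0C, the proteolipid that forms the rotor ring, had the lowest: it was at 43.3, 135 and 64.0 FPKM with palmitate, against 83.7, 136 and 56.9 FPKM untreated (-0.26 ± 0.27, limma adjusted p = 0.541). The sign of that mean turned without experiment 1 (0.08) and with the GC trend removed (0.01). The other 5 V0 and accessory genes had means from -0.13 (ATP6AP1) to 0.36 (ATP6AP2).

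In 11 of the 44 genes (25%), the ratio was above 0 in experiments 2 and 3 and below 0 in experiment 1, against 12.9% of all genes. They include CTSB, CTSD, TPP1, MCOLN1, CLCN7, ATP6AP1 and MAN2B1. Experiment 1 is the one whose ratio falls with GC content, and after that trend was removed the median of the 44 genes was 0.24, 0.54 and 0.35 in experiments 1, 2 and 3. The part of GC content in single genes was not tested.

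Further lists of lysosomal genes were read in the same fit. Their genes were not read under the other settings, so whether removing the GC trend changes these calls was not tested. Of 20 other lysosomal membrane genes tested, 5 passed upward and none downward (25% and 0%, against 6.59% and 3.84% of all genes; median log2 ratio 0.34): LAMP3 (1.90 ± 0.22), NPC1, the cholesterol exporter (1.25 ± 0.27), SLC17A5, the sialic acid exporter (1.15 ± 0.20), SLC38A9, an arginine sensor upstream of mTORC1 (0.91 ± 0.20), and LAPTM4A (0.88 ± 0.19), with limma adjusted p from 0.0169 to 0.0465. LAMP3 was at 4.23, 5.70 and 3.62 FPKM with palmitate, against 0.691, 0.236 and 0.479 FPKM untreated. It stayed below 1 FPKM in every library without palmitate. LAMP3 thus met the level for testing only through libraries given palmitate, and its place among the 5 rests partly on that filter. NPC1 was at 16.7, 39.3 and 14.0 FPKM with palmitate, against 8.33, 9.79 and 6.81 FPKM untreated. Of 25 other hydrolases and activators, AGA, aspartylglucosaminidase (1.06 ± 0.20), and CTBS, a chitobiase (1.20 ± 0.20), passed upward. PPT2, a thioesterase (-1.32 ± 0.29), and GM2A, the activator of ganglioside breakdown (-1.15 ± 0.21), passed downward, with a median of -0.08 over the 25. Each direction is 8% of the list, against 6.59% of all genes higher and 3.84% lower.

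Of 8 other V-ATPase genes tested, 1 passed, downward (12.5%, against 3.84% of all genes): ATP6V0E2 at -1.24 ± 0.27, where DMXL2, a V-ATPase assembly factor, was at 0.64 ± 0.21 without passing. None passed among 9 genes of mannose 6-phosphate sorting, 16 of mTORC1 and TFEB control at the lysosome and 18 of lysosome movement and fusion (2, 3 and 2 had an unadjusted limma p under 0.05, which is 22.2%, 18.8% and 11.1%, against 32.6% of all genes). Their medians were -0.45, 0.01 and 0.08. The sorting adaptor GGA2 (-0.82 ± 0.21) and NAGPA, which uncovers the mannose 6-phosphate tag (-0.56 ± 0.24), had the largest ratios by size in the first of these lists. RRAGC (0.98 ± 0.24, limma adjusted p = 0.0552) and FNIP1 (0.70 ± 0.25), of the Rag GTPase and folliculin complexes, had them in the second, and PLEKHM1 (0.87 ± 0.40) and BLOC1S1 (-0.69 ± 0.21) in the third.

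**Figure D2:**
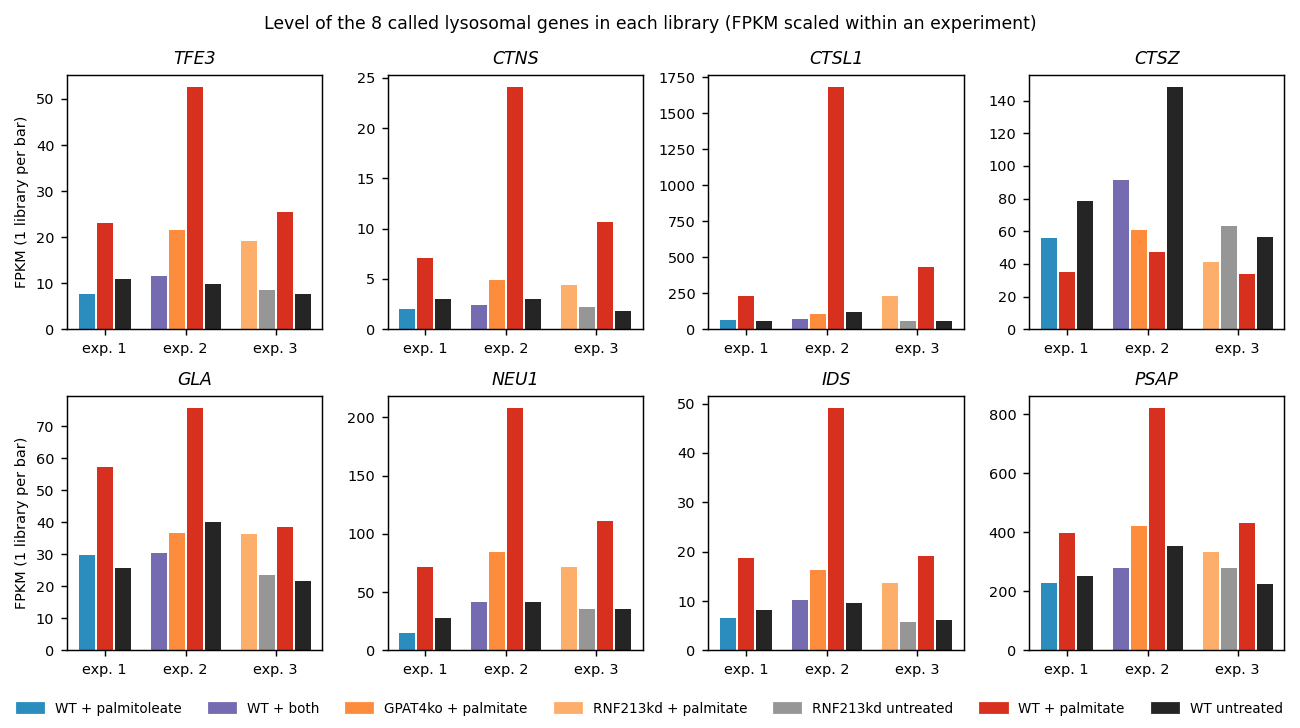
FPKM (y axis, linear from 0) of the 8 lysosomal genes called under palmitate, with 1 bar per library grouped by experiment and coloured by cell line and treatment. CTSL1 reaches 1684 FPKM in the WT palmitate library of experiment 2, against 69.6 FPKM with both acids and 109 FPKM in GPAT4ko cells given palmitate, while CTSZ is lowest in the WT palmitate libraries of all 3 experiments.

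The remaining comparisons set 1 library against another of the same experiment. They share WT libraries with the comparison above, which fixes part of their direction for the genes called there, and no library in them is replicated. Their intervals borrow the spread of the 3 WT palmitate ratios, assuming that the lone libraries vary alike. No lysosomal gene passed limma's adjusted threshold in any of them, and 2-fold, a log2 ratio of 1 on the FPKM + 1 scale, was used to describe size. At an unadjusted p under 0.05 stood 3 genes for palmitoleate against untreated and 6 for palmitoleate against palmitate (6.82% and 13.6% of the 44, against 2.42% and 5.04% of all genes). There were 14 for both acids against palmitate and 12 for GPAT4ko against WT cells under palmitate (31.8% and 27.3%, against 17.8% and 12.9% of all genes). Palmitate against untreated within RNF213kd cells had 1 (2.27%, against 2.73% of all genes), and the other 4 comparisons had 0, against 0.551% to 1.23% of all genes.

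With the spread taken from experiments 1 and 3 alone, some lysosomal genes did pass. That spread leaves out experiment 2, which holds both the mixture and the GPAT4ko library. For the WT palmitate response that fit gave limma adjusted p down to 2.8e-138, against 0.00984 with all 3 experiments. The passes below are therefore not comparable with those of the main fit. Both acids against palmitate then gave 7 lower genes, CTSL1, CTNS, NEU1, IDS, TFE3, PSAP and CD63 (15.9%, against 5.72% of all genes lower). GPAT4ko against WT cells under palmitate gave 4 lower genes, CTSL1, CTNS, CTSB and ATP6V1B2 (9.09%, against 3.79%), and palmitoleate against palmitate gave 2, CTSL1 and NEU1 (4.55%, against 1.41%). Within RNF213kd cells CTSL1 passed as higher (2.27%, against 1% of all genes).

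With palmitoleate, the 7 genes called higher under palmitate all lay below their palmitate level of the same experiment. CTSL1 was at 67.5 FPKM with palmitoleate, against 228 FPKM with palmitate and 59.8 FPKM untreated. NEU1 was at 14.8 FPKM with palmitoleate, against 71.7 FPKM with palmitate and 28.1 FPKM untreated, so it lay below both. TFE3 was at 7.56 FPKM with palmitoleate, against 23.2 FPKM with palmitate and 10.8 FPKM untreated. Relative to palmitate, 5 genes were more than 2-fold lower and 0 higher (11.4% of the 44, against 4.66% of all genes lower and 1.25% higher): NEU1 at a log2 ratio of -2.20 (95% limma interval -3.27 to -1.14), CTSL1 at -1.74, TFE3 at -1.50, CTNS at -1.44 and IDS at -1.40. Below 0 were 38 of the 44 (86.4%, against 47% of all genes). The highest ratios were those of CTSZ (0.66; 55.9 FPKM with palmitoleate, against 35.0 FPKM with palmitate), ATP6V1F (0.46) and ATP6V1A (0.36), and no dose is stated for palmitoleate alone.

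Relative to untreated cells, palmitoleate gave 0 genes more than 2-fold higher and 5 lower (11.4%, against 0.605% of all genes higher and 6.6% lower). ATP6AP1, an accessory subunit of the V-ATPase, was at 20.2 FPKM with palmitoleate, against 68.1 FPKM untreated, with a log2 ratio of -1.71 (95% limma interval -3.14 to -0.28). CTSA (-1.64), CLCN7 (-1.54), CTSD (-1.45) and LAMP1 (-1.01) were the other 4. Across genes this ratio fell with GC content (Spearman rho -0.75), and with that trend removed ATP6AP1 stood at -1.31, CTSA at -1.32 and CLCN7 at -0.76, and 2 genes remained past 2-fold. The highest ratios were ATP6AP2 (0.37), CTSS (0.33) and ATP6V1D (0.33).

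With palmitoleate added to palmitate, no lysosomal gene was 2-fold from its untreated level in experiment 2 (background 1.12% higher and 0.578% lower). CTSL1 was at 69.6 FPKM with both acids, against 1684 FPKM with palmitate alone and 119 FPKM untreated. CTNS was at 2.46 FPKM with both acids, against 24.1 FPKM with palmitate and 3.05 FPKM untreated. NEU1 was at 41.5 FPKM with both acids, against 208 FPKM with palmitate and 41.8 FPKM untreated. In each the mixture lay nearer to the untreated library than to the palmitate library, and the same held for TFE3 (11.5 FPKM), IDS (10.2 FPKM) and PSAP (277 FPKM). GLA, at 30.4 FPKM with both acids, was below palmitate (75.7 FPKM) and untreated (40.1 FPKM) alike.

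Relative to palmitate alone, the mixture gave 15 genes more than 2-fold lower and 2 higher (34.1% and 4.55% of the 44, against 10.2% and 9.22% of all genes), and 33 of the 44 were below 0 (75%, against 46.6% of all genes). The lowest log2 ratios were those of CTSL1 at -4.58 (95% limma interval -6.14 to -3.01), CTNS at -2.86 and NEU1 at -2.30. V1 subunits were among the lower genes: ATP6V1B2 (-1.48), ATP6V1D (-1.45) and ATP6V1H (-1.03). ATP6V1A at 1.25 (95% limma interval 0.03 to 2.47) and MITF at 1.01 were the higher ones, followed by CTSZ (0.93; 91.2 FPKM with both acids, against 47.5 FPKM with palmitate). These 3 genes had mean ratios below 0 under palmitate. With small RNA genes left out, limma called 6 genes lower here, CTSL1, CTNS, NEU1, IDS, TFE3 and PSAP (13.6% of the 44, against 3.61% of all genes in that setting). Relative to untreated cells, the mixture's lowest ratios were CTSL1 at -0.76 (95% limma interval -2.32 to 0.80), CTSZ (-0.70) and GUSB (-0.49) and its highest MANBA (0.50), ATP6V0A1 (0.43) and CTSH (0.37); the intervals do not show that mixture and no treatment act alike.

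**Figure D3:**
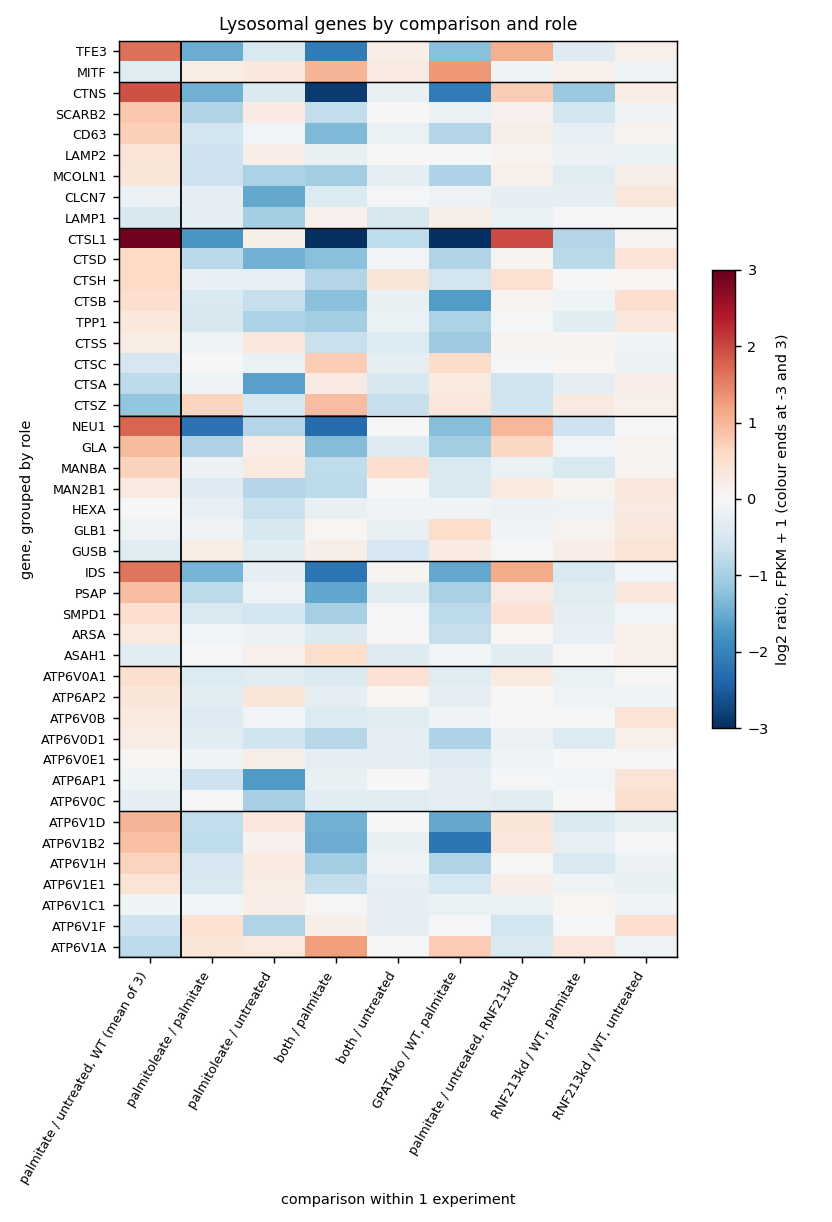
Log2 ratios (FPKM + 1, colour from -3 to 3) of the 44 tested lysosomal genes, 1 row per gene grouped by role, and 1 column per comparison; the first column is the mean of 3 experiments and the others compare 1 library with 1 other. CTSL1, CTNS, NEU1, TFE3 and IDS are red in the first column and blue where palmitate-treated WT cells are the denominator in experiments 1 and 2, and CTSZ, ATP6V1A and MITF have the opposite colours.

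GPAT4 encodes a glycerol-3-phosphate acyltransferase of the endoplasmic reticulum that starts glycerolipid synthesis. In GPAT4ko cells given palmitate the 7 genes called higher in WT cells were nearer to the untreated WT level than to the WT palmitate level. CTSL1 was at 109 FPKM in GPAT4ko cells given palmitate, against 1684 FPKM in WT cells given palmitate, where untreated WT cells had 119 FPKM. NEU1, at 84.6 FPKM in GPAT4ko cells given palmitate, lay between WT with palmitate (208 FPKM) and WT untreated (41.8 FPKM). So did TFE3, at 21.6 FPKM in GPAT4ko cells given palmitate, against 52.7 FPKM in WT cells given palmitate and 9.93 FPKM in untreated WT cells. CTNS (4.85 FPKM), IDS (16.3 FPKM) and PSAP (421 FPKM) also lay between the WT levels, while GLA (36.5 FPKM) lay below both. CTSZ was at 60.8 FPKM in GPAT4ko cells given palmitate, against 47.5 FPKM in WT cells given palmitate and 149 FPKM in untreated WT cells.

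In that comparison 10 genes were more than 2-fold lower and 1 higher (22.7% and 2.27% of the 44, against 8.06% and 7% of all genes), and 36 of the 44 were below 0 (81.8%, against 46.3%). The lowest log2 ratios were CTSL1 at -3.94 (95% limma interval -5.50 to -2.37), ATP6V1B2 at -2.19 (95% limma interval -3.13 to -1.25) and CTNS at -2.10. CTSL1 and ATP6V1B2 were called lower with small RNA genes left out (4.55%, against 1.28% of all genes in that setting). The highest were MITF at 1.31 (95% limma interval 0.30 to 2.32), ATP6V1A (0.76) and CTSC (0.56). Without an untreated GPAT4ko library, a difference between the lines and a difference in their palmitate response cannot be told apart.

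In GPAT4ko cells given palmitate, 11 of the 44 genes were below every WT library of experiment 2 and 2 above (25% and 4.55%, against 14.0% and 14.8% of all genes). The 11 are CTSB, ASAH1, ATP6V1B2 and ATP6V1C1 on chromosome 8, where GPAT4 also lies, and CTSS, ARSA, ATP6AP1, ATP6V0D1, ATP6V0E1, ATP6V1D and ATP6V1F on other chromosomes. ATP6V1B2 was at 27.6 FPKM in GPAT4ko cells given palmitate, against 45.7 FPKM in WT cells given both acids, 129.7 FPKM in WT cells given palmitate and 53.5 FPKM in untreated WT cells. In the same order of libraries, CTSB was at 26.2 FPKM against 35.4, 86.3 and 41.4 FPKM, and ASAH1 at 16.4 FPKM against 25.4, 17.4 and 33.8 FPKM. CTSB, ASAH1 and ATP6V1B2 lie on the side of GPAT4 toward the short-arm end, and ATP6V1C1 lies on the other side. Of the 98 tested genes on the short-arm side 66 were below every WT library (67.3%), against 37 of 250 on the other side of GPAT4 (14.8%) and 1373 of 10279 on other chromosomes (13.4%). The 98 genes had a median log2 ratio of -0.58 in GPAT4ko cells given palmitate relative to untreated WT cells, -0.58 relative to WT cells given palmitate and -0.56 relative to WT cells given both acids. The 250 genes on the other side of GPAT4 had medians of -0.04, 0.07 and -0.05, and the 10279 genes of other chromosomes -0.02, 0.05 and 0.00. ATP6V1B2, CTSB and ASAH1 stood at -0.93, -0.64 and -0.999 relative to untreated WT cells, and ATP6V1H and ATP6V1C1, on the other side of GPAT4, at -0.00 and -0.51. This split by position was made after values had been seen, and its part in the ratios of the lysosomal genes was not tested.

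**Figure D4:**
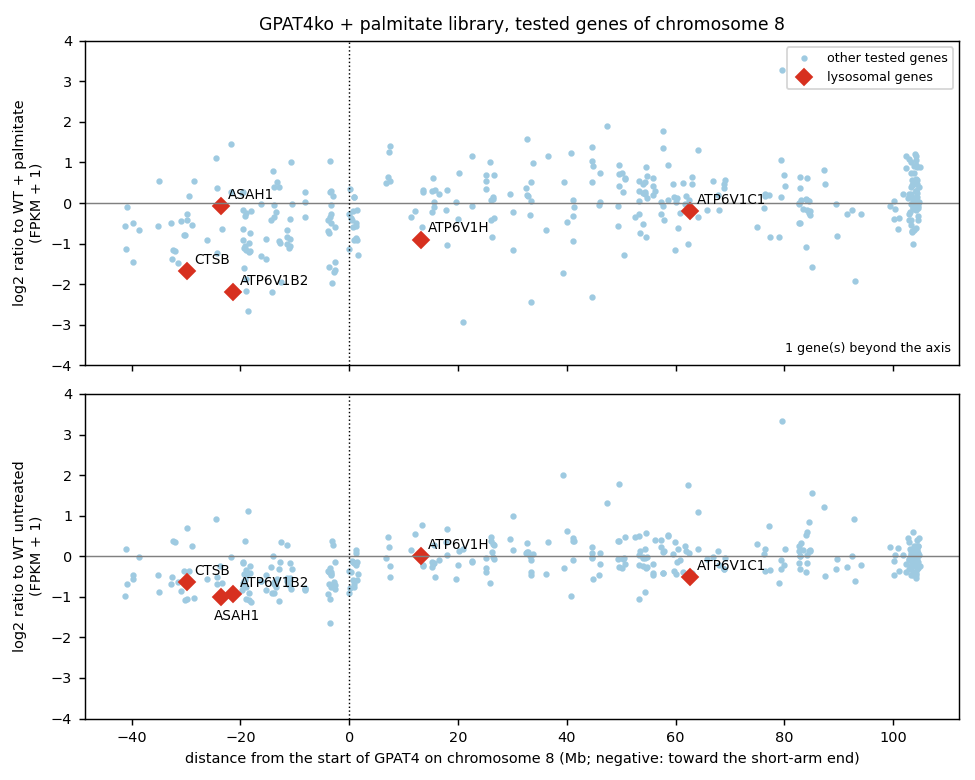
Log2 ratio (FPKM + 1, y axis) of the GPAT4ko library with palmitate to WT with palmitate (top) and to untreated WT (bottom) for tested genes of chromosome 8, against distance from the start of GPAT4 in Mb (x axis, short-arm end to the left), with lysosomal genes as red diamonds. Genes left of GPAT4 have a median of -0.58 in both panels, and CTSB, ASAH1 and ATP6V1B2 lie among them.

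RNF213 encodes a large ubiquitin ligase with an AAA ATPase domain. The 7 genes called higher under palmitate in WT cells had log2 ratios of 0.27 (PSAP) to 1.97 (CTSL1) in RNF213kd cells, against 0.80 (GLA) to 2.94 (CTSL1) in WT cells of experiment 3. CTSL1 was at 233 FPKM in RNF213kd cells given palmitate and 58.7 FPKM in RNF213kd cells untreated, against 429.9 FPKM in WT cells given palmitate and 55.0 FPKM in WT cells untreated. CTNS was at 4.39 and 2.22 FPKM in RNF213kd cells with palmitate and untreated, against 10.6 and 1.78 FPKM in WT cells with palmitate and untreated. NEU1 was at 71.3 and 35.5 FPKM in RNF213kd cells with palmitate and untreated, against 111 and 35.5 FPKM in WT cells with palmitate and untreated. The untreated lines were thus close for all 3 genes and the palmitate libraries further apart. The 7 genes were chosen by WT ratios that include those of experiment 3, which fixes part of this direction.

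Within RNF213kd cells, palmitate gave 3 genes more than 2-fold higher and 0 lower (6.82% of the 44, against 2.74% and 0.704% of all genes): CTSL1 at 1.97 (95% limma interval 0.40 to 3.53), IDS at 1.12 and TFE3 at 1.07. IDS was at 13.7 FPKM with palmitate, against 5.78 FPKM untreated, and TFE3 at 19.2 FPKM with palmitate, against 8.58 FPKM untreated. GLA was at 36.4 FPKM with palmitate, against 23.5 FPKM untreated, and PSAP at 335 FPKM with palmitate, against 278 FPKM untreated. The lowest ratios were CTSZ (-0.61; 41.0 FPKM with palmitate, against 62.9 FPKM untreated), CTSA (-0.60) and ATP6V1F (-0.55).

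The difference between the RNF213kd response and the WT response of experiment 3 was tested as such, and no lysosomal gene passed (smallest limma adjusted p = 1). It was below -1 for CTNS at -1.32 (95% limma interval -3.34 to 0.69) and CTSD at -1.19 (95% limma interval -3.64 to 1.26), and CTSL1 followed at -0.97. These 2 genes are 4.55% of the 44, against 1.54% of all genes, and 36 of the 44 differences were below 0 (81.8%, against 50% of all genes). The difference fell with GC content across genes (Spearman rho -0.45), and with that trend removed its median over the 44 genes was -0.27, against -0.32 as deposited. The highest differences were ATP6V1A (0.50), MITF (0.30) and CTSC (0.24).

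Between the lines under palmitate, 1 lysosomal gene was more than 2-fold lower in RNF213kd cells and 0 higher (2.27%, against 0.804% and 0.551% of all genes): CTNS at -1.11 (95% limma interval -2.54 to 0.32), followed by CTSL1 at -0.88 and CTSD at -0.80. ATP6V1A (0.34), CTSZ (0.27) and GUSB (0.20) were highest, and 32 of the 44 were below 0 (72.7%, against 43.7% of all genes). Between the untreated lines none was 2-fold apart (background 0.46% higher and 0.379% lower). The ratios there ran from -0.23 for ATP6V1D, -0.22 for ATP6V1E1 and -0.20 for LAMP2 to 0.49 for ATP6V0C and 0.50 for both CTSB and ATP6V1F. Across genes the ratio between the untreated lines rose with GC content (Spearman rho 0.63). With that trend removed its median over the 44 genes was 0.06, against 0.10 as deposited.

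**Figure D5:**
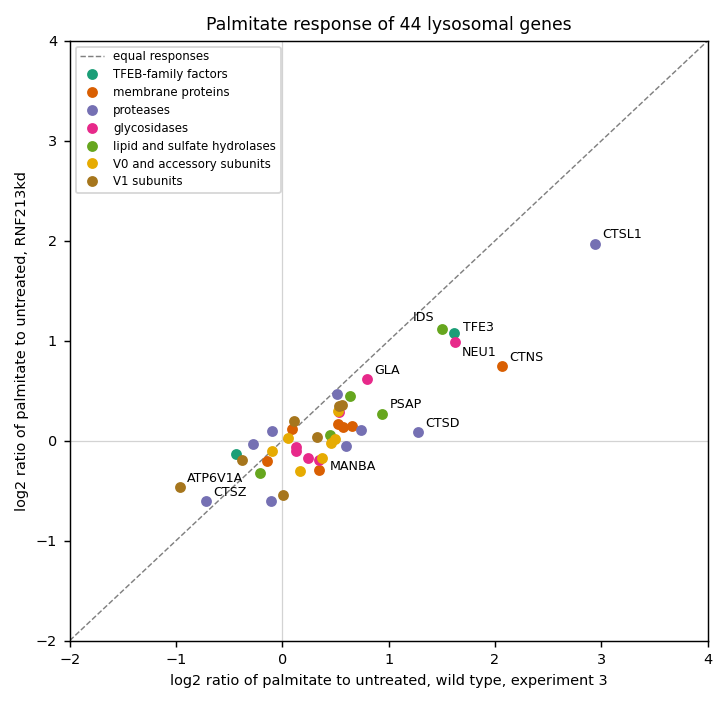
Log2 ratio of palmitate to untreated (FPKM + 1) in RNF213kd cells (y axis) and in WT cells (x axis) of experiment 3, with 1 point per lysosomal gene coloured by role and a dashed line where the responses are equal. CTSL1 lies at 1.97 in RNF213kd cells and 2.94 in WT cells, and 36 of 44 points lie below the line.

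The factors and the extremes of each role that did not pass had the following levels in the 5 lone libraries. TFEB was at 0.384 FPKM with palmitoleate, 1.53 FPKM with both acids, 0.508 FPKM in GPAT4ko cells given palmitate, and 0.585 and 0.570 FPKM in RNF213kd cells with palmitate and untreated. MITF was at 9.06 FPKM with palmitoleate, 5.72 FPKM with both acids, 7.24 FPKM in GPAT4ko cells given palmitate, and 5.03 and 5.63 FPKM in RNF213kd cells with palmitate and untreated. The palmitoleate library was the highest of all 11 for MITF, and the library with both acids the highest for TFEB. In the same order of libraries, LAMP1 was at 16.2, 50.4, 52.4, 42.6 and 49.0 FPKM, and the palmitoleate library was the lowest of the 11. GUSB was at 25.9, 36.4, 38.2, 30.0 and 31.5 FPKM, within the range of the WT palmitate and untreated libraries. ASAH1 was at 49.6, 25.4, 16.4, 29.1 and 36.6 FPKM, with its lowest level in GPAT4ko cells. Among V-ATPase genes, again in that order, ATP6V0A1 was at 24.2, 42.0, 44.5, 27.9 and 22.6 FPKM and ATP6V0C at 41.4, 109, 111, 64.5 and 80.1 FPKM. ATP6V1D was at 24.8, 22.3, 21.1, 32.4 and 25.1 FPKM and ATP6V1A at 23.8, 21.7, 15.2, 16.3 and 22.9 FPKM. ATP6V1D was higher in WT cells given palmitate than in any of these 5 libraries, in all 3 experiments.

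On the FPKM scale, which is per transcript length, mean levels over the 11 libraries spanned the tested genes from ARSA to CD63. CD63 (380.2 FPKM), PSAP (365 FPKM), ATP6V1F (325 FPKM), CTSL1 (283 FPKM) and ATP6V0B (228 FPKM) led. CTSL1 held that place through its palmitate libraries, and CTSC (87.4 FPKM) and CTSZ (64.7 FPKM) were the next proteases. V-ATPase subunits of 1 sector differed widely, from 16.9 FPKM for ATP6V1C1 and 18.8 FPKM for ATP6V1A to 325 FPKM for ATP6V1F.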

How the data were processed

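Per the labels and the submitters' processing notes, RNA of biological triplicates was pooled per library, prepared as stranded mRNA libraries, mapped to hg19 with TopHat2 and quantified with Cuffdiff (versions not given in the sources used here). The authors deposited FPKM per gene in 1 table per experiment, scaled within that table. Tables list 23284, 23284 and 23262 genes. Left out were symbols turned into dates (26) and failed tests (2, 2 and 6). Also left out were listings whose relative difference between pairs exceeded 0.01 (2, 0 and 15), and 23153 genes were shared. Of 12 labelled libraries 11 have values, and 2 further libraries in the tables were not used.

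Ratios of log2(FPKM + 1) were formed within a table. The WT palmitate response (3 ratios) was tested with limma 3.58.1 in R 4.3.3 (intensity trend, 2 residual and 3.86 prior degrees of freedom, two-sided, Benjamini-Hochberg adjusted p under 0.05) over the 11075 genes whose mean reached 1 FPKM. Experiments pair the libraries: across genes, deviations of a palmitate library and the untreated library of its own experiment correlated at 0.458, 0.634 and 0.696. Comparisons of lone libraries used the same spread, a difference of responses the variance of 2 ratios. The fit was tested on simulated data with independent noise for each gene and experiment and no GC trend. That test therefore cannot show how the fit handles a GC trend or an effect shared by genes of 1 experiment.

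Members and lists were chosen with earlier results of these data known, and 2 genes of the marker and further lists are not reported here. Named genes are all called members, the highest and lowest mean ratio of each role, the TFEB family, and the 3 highest and lowest ratios of each lone comparison; of other lists, the 2 largest by size and all called where at most 5; further genes were named after their values were seen. Gene positions and GC content (96.0% of tested genes) come from a GRCh37 annotation (hg19), promoters from RefSeq. The GC trend was removed with a lowess curve (window 0.3). Further settings tried were no filter, a higher filter (5 FPKM), a pseudocount of 0.1, centring, a fit leaving out 196 small RNA and SNAR genes, no intensity trend, no pairing, and leaving out each experiment.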

Additional observations from a re-analysis of the deposited data

Results flagged for a closer look

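MANBA, which encodes beta-mannosidase, had a log2 ratio of palmitate to untreated of -0.19 in RNF213kd cells, at 5.04 FPKM with palmitate and 5.89 FPKM untreated. In WT cells the ratios were 0.47, 1.27 and 0.34 in experiments 1, 2 and 3, all above 0. It was singled out because the single RNF213kd ratio has the opposite sign to every WT ratio. In experiment 3 the RNF213kd response was lower than the WT response by a log2 difference of -0.53 (95% limma interval -2.05 to 0.99), which did not pass limma (adjusted p = 1), so a difference between the lines was not shown for this gene.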

How the results depend on the processing

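The count of 7 lysosomal genes higher and 1 lower under palmitate was the same with a pseudocount of 0.1, was 8 and 1 with a mean of at least 5 FPKM or no intensity trend, and 10 and 1 with centred ratios. It was 11 higher and 1 lower when small RNA and SNAR genes were not fitted, and 15 higher and 2 lower after removal of the GC trend. It was 0 and 0 with no filter on expression (smallest limma adjusted p = 0.234) and with no replicate block, that is 3 palmitate against 3 untreated libraries unpaired (0.0621). Leaving out experiments gave 0 to 5 genes higher and 0 genes lower: 0 higher without experiment 1 (smallest adjusted p = 0.0525), 5 without experiment 2 and 0 without experiment 3 (0.134). Fewer ratios enter those fits, and the cause was otherwise not tested. Over all genes the fit without experiment 2 gave limma adjusted p down to 2.8e-138, so its p-values cannot be set beside the main ones. Over all genes, 730 higher and 425 lower became 1214 and 1180 without small RNA genes, 1474 and 1577 after GC correction, and 262 and 52 unpaired. Genes more than 2-fold from untreated under palmitoleate numbered 5, against 8 with a pseudocount of 0.1 and 2 with the GC trend removed. In the single-library comparisons lysosomal genes passed limma only with small RNA genes left out (6 and 2 in 2 comparisons) and without experiment 2 (1 to 7 in 4 comparisons). The ATP6V0C mean reversed to 0.0103 with the GC trend removed and ran from -0.471 to 0.0808 when experiments were left out. Of the values of the 16 named tested genes under alternatives, 133 kept direction and side of the threshold, 35 kept direction but no longer passed, 6 newly passed and 2 reversed. Depth is unknown, since no read counts are given.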
